A study of Mus musculus with 18 samples.

Results

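The ribosome biogenesis factors described here are 41 genes whose products transcribe ribosomal RNA, cut and modify it, or assemble it into ribosomal subunits. They were chosen by gene symbol from knowledge of the pathway, with earlier results of these data known. All 41 were found among the 24116 genes of the deposited table. All 41 passed a filter of at least 1 RPKM (reads scaled by gene length and library size) in at least 3 libraries, as did 11111 genes in all.

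The samples were intestinal organoids, closed epithelial structures grown in gel from intestinal stem and progenitor cells, of 8-week-old C57BL/6 wild-type mice. Each of days 0, 1, 2, 3, 4 and 5 of growth had 3 libraries (replicates 1 to 3), and each library pooled 30 wells. All received ENR medium, which holds EGF, Noggin and R-Spondin. From day 0 to day 3 it also held 20% Wnt3a-conditioned medium and 10 µM of the ROCK inhibitor Y-27632, and from day 0 to day 1 also 3 µM CHIR99021, an inhibitor of GSK3B that activates Wnt signalling. Days 3 to 5 were spent in ENR alone, so an effect of the day and an effect of the medium cannot be told apart. The 3 lines are named mouse 1, 2 and 3 in the titles, and replicate 2 came from mouse 2 except at days 1 and 2, where the title gives mouse 1. DNase treatment was used for the 12 libraries of replicates 2 and 3 and not for those of replicate 1, all from mouse 1. No knockout, transgene or selected clone enters any group.

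The libraries held an implied 43010000 to 53930000 reads, so that 1 RPKM stands for 43.0 to 53.9 reads per kilobase. The 10 markers of intestinal epithelium summed to 2902 to 10070 RPKM, whereas markers of mesenchyme summed to at most 6.57, of immune cells to 8.11, of endothelium to 0.380 and of red blood cells to 0.011 RPKM. Replicate 1 of day 0, replicate 2 of day 3 and replicate 3 of day 4 were taken as libraries that stand apart. Their mean correlations with the rest of their day, over all genes tested, were 0.954, 0.942 and 0.928. The first and the last of these were the lowest of their day, while at day 3 replicate 1 was lower still, at 0.939. Day 4 replicate 1 (0.938) and day 2 replicate 2 (0.948) also lay below day 0 replicate 1. No cutoff on this correlation picks out these 3 libraries, so leaving them out together is an arbitrary choice. Counts are given with and without the 3 libraries. The libraries are bulk RNA, in which fewer cells of a type and less RNA per cell cannot be told apart.

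Ribosome production starts in the nucleolus, where RNA polymerase I transcribes a long precursor of the ribosomal RNAs. Small nucleolar ribonucleoproteins (snoRNPs) guide its methylation (box C/D class) and pseudouridylation (box H/ACA class), and separate sets of assembly factors then process the RNA of the small and of the large subunit. The process is among the most costly in a growing cell, is a classical target of the transcription factor Myc, and in the intestine is a feature of the dividing cells of the crypt.

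The 41 genes spanned a wide range of levels. On the RPKM scale, which is per length of gene, the highest mean over the 18 libraries was 137 for Ncl (nucleolin), the lowest was 2.60 for Mdn1, and the median member stood at 25.4, against 8.86 for the median gene tested. Ncl, an RNA-binding protein of the nucleolus, stood at 123 ± 14.1 (SD, n = 3 here and below), 191 ± 39.1, 175 ± 56.7, 145 ± 49.7, 106 ± 63.8 and 79.6 ± 2.15 RPKM at days 0 to 5. It was the highest of the 4 multifunctional nucleolar proteins, which also hold the histone chaperone and shuttling protein Npm1 (nucleophosmin), the RNA helicase Ddx21 and the snoRNP chaperone Nolc1.

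In each other role the most abundant member went through the same kind of course, with the highest mean at day 1 and the lowest at day 5. Mybbp1a, a nucleolar regulator of ribosomal RNA transcription, stood at 77 ± 14.1, 95.2 ± 25.5, 86.8 ± 26.3, 69.3 ± 26.7, 49.4 ± 29.0 and 36.8 ± 9.65 RPKM at days 0 to 5. Nop58, a core protein of box C/D snoRNPs, stood at 95.0 ± 3.44, 115 ± 25.4, 104 ± 31.5, 89.9 ± 25.9, 70.5 ± 40.8 and 52.3 ± 2.26 RPKM. The core protein Nhp2 of box H/ACA snoRNPs stood at 75.5 ± 9.48, 132 ± 17.4, 113 ± 41.3, 96.0 ± 24.0, 69.0 ± 31.5 and 55.0 ± 2.26 RPKM. The SD of these genes within days 2 to 4 was large beside the steps between neighbouring days, and it reached 40.8 RPKM for Nop58 at day 4.

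Ltv1, which acts in late assembly and export of the small subunit, stood at 42.4 ± 8.12, 55.8 ± 4.92, 49.6 ± 8.55, 44.3 ± 9.17, 35.7 ± 14.1 and 29.5 ± 0.887 RPKM at days 0 to 5. Gnl3 (nucleostemin), a nucleolar GTPase of large subunit maturation, stood at 55.3 ± 16.1, 71.6 ± 17.8, 64.2 ± 20.5, 54.8 ± 21.1, 42.6 ± 28.7 and 30.1 ± 1.13 RPKM. The lowest level belonged to a very large protein. Mdn1, the giant AAA ATPase that removes assembly factors from pre-60S particles, stood at 3.01 ± 1.14, 3.47 ± 1.27, 3.05 ± 1.4, 2.64 ± 1.02, 1.96 ± 0.705 and 1.45 ± 0.620 RPKM.

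Wdr12, which forms the PeBoW complex of 60S assembly with Pes1 and Bop1, stood at 6.44 ± 1.30, 10.5 ± 2.25, 8.97 ± 2.73, 7.83 ± 2.10, 5.78 ± 3.37 and 4.69 ± 0.137 RPKM at days 0 to 5. Utp20, a large scaffold of the small subunit processome, stood at 9.30 ± 0.730, 10.5 ± 3.43, 9.51 ± 2.99, 7.85 ± 2.69, 5.86 ± 2.90 and 3.66 ± 1.16 RPKM. The plot of mean levels at days 0, 1 and 5 sets all 41 genes in order.

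**Figure D1:**
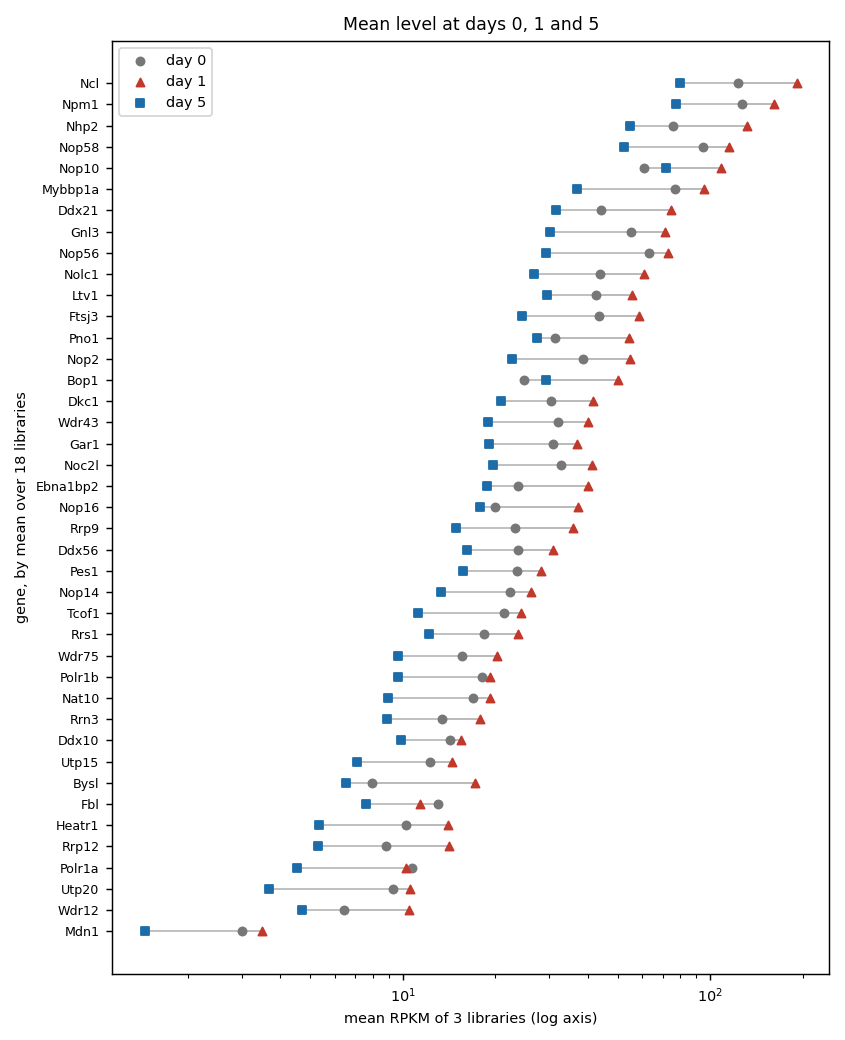
Mean RPKM of 3 libraries (x axis, log scale) at day 0 (circles), day 1 (triangles) and day 5 (squares) for each of the 41 genes (y axis), ordered by the mean over 18 libraries. From Mdn1 to Ncl, day 5 lies to the left of day 1 for all 41 genes, and day 5 lies to the right of day 0 for Nop10 and Bop1.

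The highest mean fell at day 1 for 35 of the 41 genes, beside 24.1% of all genes tested, and the lowest at day 5 for 39, beside 38.8%. Nop10 and Bop1 had their lowest mean at day 0. The highest mean fell at day 0 for Polr1a, the largest catalytic subunit of RNA polymerase I, with 10.8 ± 2.92 RPKM beside 10.2 ± 2.37 at day 1. It fell at day 2 for 5 genes, namely Tcof1 (treacle, which couples polymerase I to pre-ribosomal RNA), the methyltransferase Fbl (fibrillarin) of box C/D snoRNPs, the H/ACA protein Gar1, the helicase Ddx10 and the 5S particle factor Rrs1. Their day 2 and day 1 means differed by less than the SD at day 2, with Fbl at 13.7 ± 4.58 against 11.4 ± 0.615 and Tcof1 at 24.5 ± 8.91 against 24.3 ± 8.57 RPKM. These counts of days are descriptions made with the values in view.

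**Figure D2:**
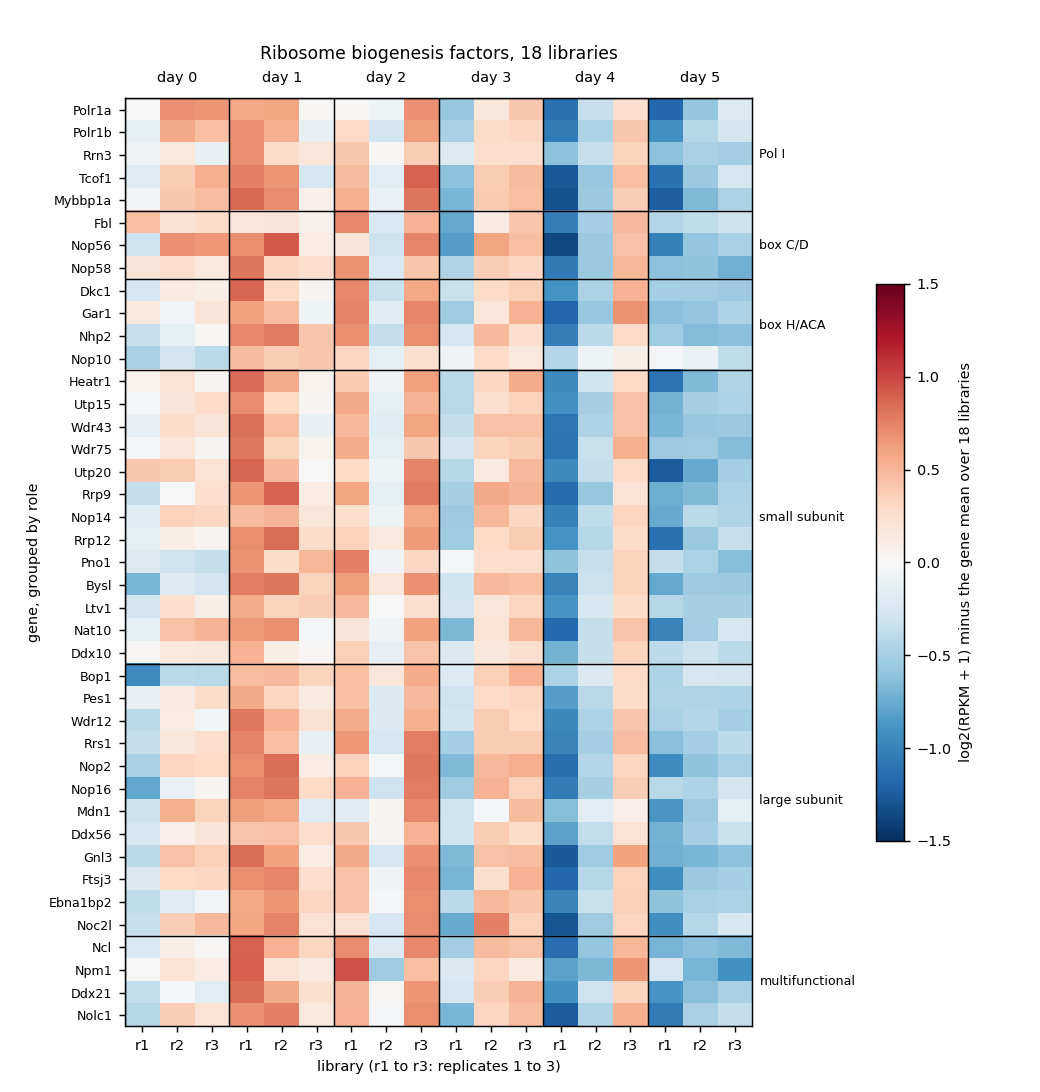
Values of 41 genes (rows, grouped by role) in 18 libraries (columns, 3 replicates a day), as log2(RPKM + 1) minus the mean of the gene over all libraries. Red is above and blue below the gene's own mean: all 41 genes are below it in the 3 libraries of day 5, and all 41 are above it in day 4 replicate 3.

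A member score was formed as the mean over the 41 genes of log2(RPKM + 1), centred for each gene over the 18 libraries, so that a score of 1 is a doubling on that scale. At days 0 to 5 its mean was 0.04 ± 0.22, 0.45 ± 0.28, 0.32 ± 0.39, 0.10 ± 0.47, -0.34 ± 0.68 and -0.57 ± 0.14 (SD, n = 3). Day 1 replicates 1 to 3 scored 0.68, 0.53 and 0.14, and day 5 replicates 1 to 3 scored -0.72, -0.52 and -0.46, with no overlap. Days 0 and 1 overlapped, since day 0 replicates 2 and 3 scored 0.18 and 0.16. The 115 other genes of ribosome biogenesis, a list kept apart from the 41, scored 0.51, 0.40 and 0.10 at day 1 and -0.51, -0.39 and -0.37 at day 5.

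**Figure D3:**
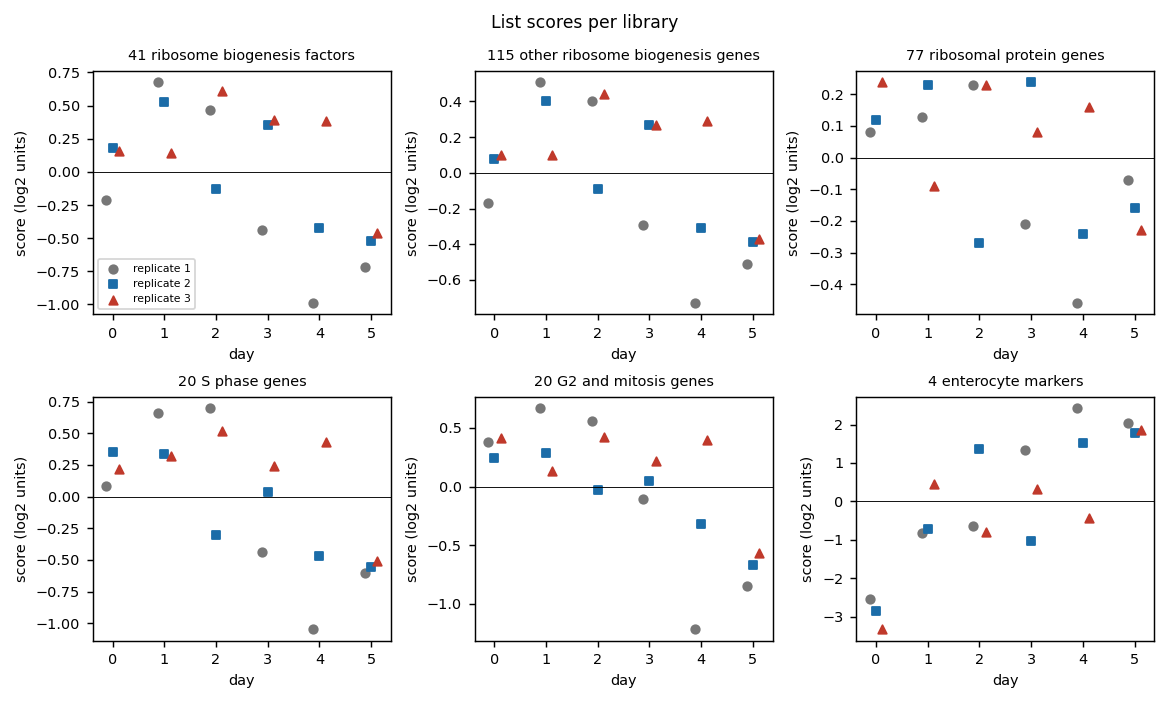
List score of each library (y axis, log2 units) by day (x axis) for 6 gene lists, with circles, squares and triangles for replicates 1, 2 and 3. The 41 factors lie between 0.14 and 0.68 at day 1 and between -0.72 and -0.46 at day 5, while day 4 spreads from -0.99 to 0.38.

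Most members had their highest mean on the same day, and their promoters were searched for short motifs, in windows from 250 bases before to 50 after the start site from RefSeq (GRCm38.p6), on both strands. A window was at hand for 35 members, and Fbl, Npm1, Bop1, Tcof1, Rrp12 and Rrs1 had none. The E-box CACGTG, the preferred site of Myc and its partner Max and of related factors, stood in 9 of the 35 (25.7%), against 12.3% of the 8822 tested genes with a window and 8.1% of all 27025 windows. The Ets-type motif CCGGAAG stood in 10 (28.6%, against 21.7% of tested genes), the palindromic NRF1 motif in 1 (2.9%, against 2.5%) and the palindrome with a CGCG core in 0 (0.0%, against 1.3%). A match is a description of these letters and not of binding. The following stretches of 30 bases show the E-box in capitals for 5 members on which the results below turn, 5′ to 3′ on the strand of the gene, with 2 for Rrn3.
Rrn3, chr16:13780472-13780501, plus strand: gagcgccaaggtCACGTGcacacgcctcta
Rrn3, chr16:13780639-13780668, plus strand: ttacgctctgctCACGTGggccgcgtcccg
Mybbp1a, chr11:72441347-72441376, plus strand: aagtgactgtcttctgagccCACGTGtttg
Utp20, chr10:88826765-88826794, minus strand: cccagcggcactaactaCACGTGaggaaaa
Pno1, chr11:17211540-17211569, minus strand: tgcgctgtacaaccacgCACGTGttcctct
Nop2, chr6:125131811-125131840, plus strand: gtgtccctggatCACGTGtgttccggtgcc
In Rrn3 the E-boxes begin 215 and 48 bases before the start site and in Nop2 60 bases before it. In Mybbp1a, Utp20 and Pno1 the E-box begins 41, 38 and 38 bases after it. The other members with an E-box were Wdr43, Ltv1, Pes1 and Mdn1. Between day 1 and day 5 the 9 members with an E-box had a median log2 change of -0.97 and the 26 without one of -1.04 (8 and 19 called lower). The difference was not tested.

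Between day 1 and day 5 the ribosome biogenesis factors fell across all roles. The comparison sets the day on which most of them stood highest against the end of the culture, and it was chosen because of that. The signs, overlaps and calls of the 41 genes are favoured by this choice, which was not made for all genes. With limma, 29 of the 41 genes fell and 0 rose, against 16.1% of all genes tested called lower and 11.8% called higher. All 41 changes were below 0, as were 61.9% of those of all genes. The median log2 change on the log2(RPKM + 1) scale was -1.03 for the 41 genes, a level 0.49 times that of day 1, and -0.15 for all genes tested. The 3 libraries of day 5 lay below the 3 of day 1 for 40 of the 41 genes, against 33.8% of all genes, with Mdn1 as the exception. An unadjusted p under 0.05 was reached by 40 of the 41, all lower, against 43.0% of all genes in either direction.

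The 29 calls depended on the libraries of the days compared. With replicate 1 or 2 of day 1 left out, the count was 6 or 11 of 41, where 5.82% and 7.61% of all genes were called lower. With replicate 1, 2 or 3 of day 5 left out it was 8, 14 or 15, where 6.58%, 8.27% and 7.77% of all genes were called. Omitting the 3 libraries that stand apart gave 40, where 23.2% of all genes were called. Among the DNase-treated libraries alone, 10 of the 41 genes fell, against 7.39% of all genes, and the median log2 change of the 41 was -0.85 with all of them below 0. Rrp12, Nhp2, Bysl, Ddx21 and Pno1 were called under all 29 alternatives run.

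Of the 5 genes of RNA polymerase I transcription, 3 fell. For this and each role below, the share of all genes called lower was 16.1%. Mybbp1a (Entrez 18432, chromosome 11, 72441327 to 72451770 in mm10) stood at 115, 104 and 66.5 RPKM in replicates 1 to 3 of day 1 and at 26.2, 39.4 and 45.0 RPKM in those of day 5. The groups did not overlap, with mouse 3 (replicate 3) lowest at day 1 and highest at day 5. Its log2 change was -1.34 ± 0.40 (SE, adjusted p = 0.02432), the largest decrease among the members on this scale. As a ratio of mean RPKM, day 5 to day 1, Mybbp1a stood at 0.39, above Utp20 at 0.35 and Heatr1, Rrp12 and Bysl at 0.38. Rrn3 (TIF-IA), which recruits the polymerase to the ribosomal DNA promoter, fell from 17.9 ± 3.65 to 8.87 ± 0.430 RPKM (adjusted p = 0.008798). Polr1a fell from 10.2 ± 2.37 to 4.54 ± 1.77 RPKM (adjusted p = 0.04213). For the second largest subunit Polr1b the means were 19.2 ± 5.38 and 9.66 ± 2.32 RPKM (adjusted p = 0.06757), and for Tcof1 they were 24.3 ± 8.57 and 11.2 ± 3.47 RPKM (adjusted p = 0.08198).

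Of the 3 box C/D proteins, 2 fell. Nop56 (Entrez 67134, chromosome 2, 130274367 to 130279313) stood at 77.1, 90.2 and 51.0 RPKM at day 1 and at 22.9, 31.3 and 33.4 RPKM at day 5, without overlap. Its log2 change was -1.27 ± 0.45 with an adjusted p of 0.04887, and the call was lost in 14 of the 29 alternatives. Nop58 had a log2 change of -1.10 ± 0.33 (adjusted p = 0.02443). The enzyme of the complex, Fbl, stood at 11.4 ± 0.615 and 7.61 ± 0.342 RPKM, a log2 change of -0.52 ± 0.34 (adjusted p = 0.2473), the smallest change of the 41. Even so, the 3 values of Fbl at day 5 (7.26, 7.62 and 7.94 RPKM) lay below all 3 of day 1 (11.7, 11.7 and 10.7 RPKM).

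Of the 4 box H/ACA proteins, Nhp2 and Nop10 fell. The log2 change of Nhp2 was -1.24 ± 0.31 (adjusted p = 0.01181), with levels of 132 ± 17.4 and 55.0 ± 2.26 RPKM. Nop10 had the smaller change, -0.59 ± 0.16 (adjusted p = 0.01801), with levels of 108 ± 3.60 and 72.0 ± 9.38 RPKM. For Dkc1 (dyskerin), the pseudouridine synthase, the means were 41.7 ± 13.1 and 20.8 ± 0.224 RPKM with an adjusted p of 0.0531, and for Gar1 they were 37.0 ± 8.68 and 19.1 ± 1.16 RPKM with 0.09005.

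Of the 13 small subunit factors, 11 fell. Their median log2 change was -1.0, while the medians of the other roles ran from -1.19 to -0.91. Utp20 (Entrez 70683, chromosome 10, 88746607 to 88826814) stood at 14, 10.5 and 7.14 RPKM at day 1 and at 2.42, 3.84 and 4.72 RPKM at day 5 (log2 change -1.29 ± 0.32, adjusted p = 0.01165). Rrp12, a HEAT-repeat protein of pre-ribosome maturation and export (Entrez 107094, chromosome 19, 41859483 to 41896153), stood at 15.0, 16.5 and 10.9 RPKM and then at 3.52, 5.71 and 6.72 RPKM (log2 change -1.28 ± 0.30, adjusted p = 0.008501). In both genes the days did not overlap, and replicate 3 was again lowest at day 1 and highest at day 5.

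Bysl (bystin), a late factor of the small subunit, fell from 17.2 ± 3.12 to 6.55 ± 0.631 RPKM with the smallest adjusted p of all members (0.008067). Its partner in late maturation Pno1 fell from 54.6 ± 7.50 to 27.2 ± 2.81 RPKM (adjusted p = 0.008174). The processome proteins Heatr1, Utp15, Wdr43, Wdr75, Rrp9 and Nop14 and the export factor Ltv1 also fell, by 0.89 to 1.23 on the log2 scale. The RNA acetyltransferase Nat10 (19.2 ± 5.16 and 8.92 ± 2.51 RPKM, adjusted p = 0.0548) and Ddx10 (15.4 ± 3.24 and 9.84 ± 0.333 RPKM, adjusted p = 0.06757) were not called.

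Of the 12 large subunit factors, 8 fell. The levels of the methyltransferase Nop2 were 55.0 ± 13.7 and 22.7 ± 3.66 RPKM, and its log2 change was -1.22 ± 0.38 (adjusted p = 0.02864). The methyltransferase Ftsj3 fell from 58.6 ± 10.5 to 24.4 ± 3.74 RPKM (adjusted p = 0.02165). All members of the PeBoW complex fell, with log2 changes of -0.76 ± 0.22 for Bop1, -0.80 ± 0.26 for Pes1 and -0.99 ± 0.30 for Wdr12. The helicase Ddx56, Gnl3 and Ebna1bp2 fell as well. Nop16, Noc2l, Rrs1 and Mdn1 had log2 changes from -1.04 to -0.86 with adjusted p from 0.05165 to 0.08257.

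Of the multifunctional proteins, Ncl, Ddx21 and Nolc1 fell, with log2 changes of -1.24 ± 0.36, -1.21 ± 0.28 and -1.17 ± 0.40. Npm1 stood at 220, 136 and 129 RPKM at day 1 and at 98.0, 71.9 and 62.3 RPKM at day 5, and its adjusted p was 0.05588. Counts of calls by role were not tested against each other, and the 12 uncalled members had changes of the same sign.

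Markers of cell types and of the cell cycle moved between the same days. The 4 enterocyte markers, all detected, summed to 1737 to 4348 RPKM at day 1 and to 11100 to 14020 RPKM at day 5, the 4 Paneth cell markers to 67.5 to 134 and to 1864 to 2540 RPKM. Of these, 3 and 4 were called higher. The 4 stem cell markers summed to 15.5 to 49.9 and to 399 to 625 RPKM, but only 1 of them was called higher, and their log2 changes ran from -0.92 to 6.49. Of the 20 genes of G2 and mitosis 17 fell (85.0%), and of the 20 S phase genes 11 fell (55.0%), against 16.1% of all genes. Their median log2 changes were -1.11 and -0.96. Examples are the mitotic kinase Aurka (-1.35 ± 0.30, adjusted p = 0.007232), the proliferation marker Mki67 (-1.31 ± 0.41, adjusted p = 0.03068), the ribonucleotide reductase subunit Rrm2 (-2.20 ± 0.34, adjusted p = 0.0007696) and the cyclin Ccne1 (-1.43 ± 0.36, adjusted p = 0.01159). Their part in the fall of the 41 genes was not tested.

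**Figure D4:**
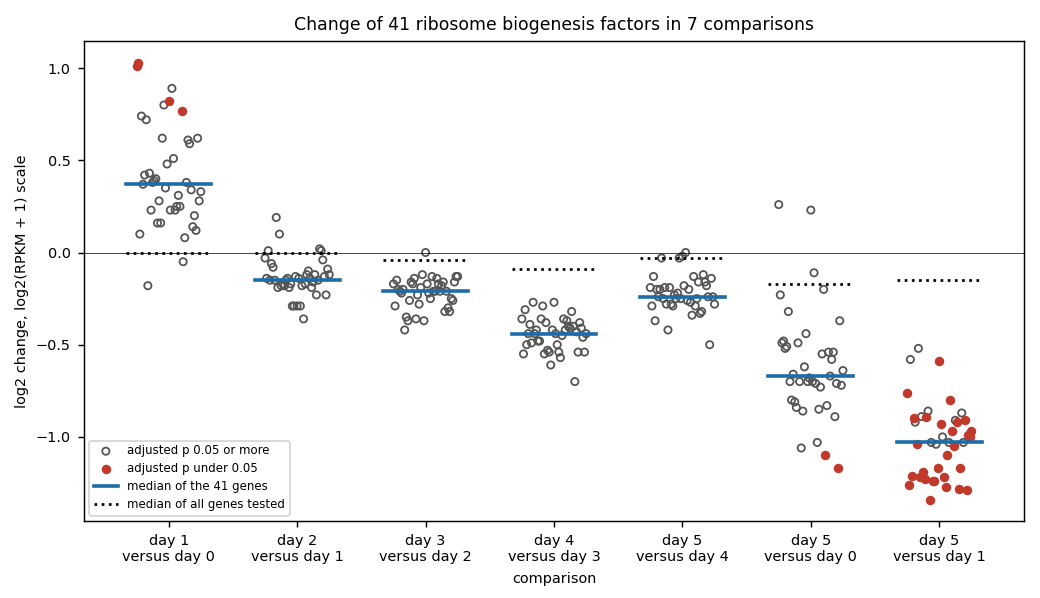
Log2 change (y axis, log2(RPKM + 1) scale) of each of the 41 genes in 7 comparisons (x axis), filled where limma's adjusted p is under 0.05. Solid lines mark the median of the 41 genes and dotted lines that of all genes tested: they stand at -1.03 and -0.15 for day 5 versus day 1 and at 0.37 and 0.0 for day 1 versus day 0.

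Between day 0 and day 1, the span of the CHIR99021 treatment, 4 of the 41 genes rose and 0 fell. This share, 9.76%, is near the 9.54% of all genes called higher (9.05% were called lower), so the count of calls is not a result about these genes. The median log2 change was 0.37 for the 41 genes and 0.0 for all genes, and 39 of the 41 had a change above 0, against 49.8% of all genes, while Fbl and Polr1a had one below 0, as did 50.2% of all genes. An unadjusted p under 0.05 was reached by 8 of the 41, all higher, fewer than the 32.4% of all genes that reached it in either direction. The 3 libraries of day 1 lay above those of day 0 for 15 genes, against 21.6% of all genes, and below them for 1, Fbl, against 19.6%. Between the same days the enterocyte markers went from 481 to 580 RPKM to 1737 to 4348 RPKM (2 of 4 called higher) and the stem cell markers from 154 to 252 RPKM to 15.5 to 49.9 RPKM (3 of 4 called lower, 1 higher). Of the 10 epithelial markers 6 were called higher, and 0 of the 20 S phase and 0 of the 20 G2 and mitosis genes were called. The part of the cell types in the changes was not tested.

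Bysl (Entrez 53414, chromosome 17, 47599331 to 47611492) rose most, from 6.23, 9.06 and 8.51 RPKM in replicates 1 to 3 of day 0 to 18.7, 19.3 and 13.6 RPKM in those of day 1. Its log2 change was 1.03 ± 0.29 (adjusted p = 0.02242). Bop1 (Entrez 12181, chromosome 15, 76452988 to 76477249) rose from 18.9, 27.7 and 27.6 RPKM to 51.6, 52.3 and 47.0 RPKM (log2 change 1.01 ± 0.22, adjusted p = 0.004786). In both genes every library of day 1 was above every library of day 0.

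Nop10 (Entrez 66181, chromosome 2, 112261926 to 112262898) rose from 57.0, 65.7 and 60.7 to 112, 105 and 108 RPKM (log2 change 0.82 ± 0.16, adjusted p = 0.00336). Pno1 (Entrez 66249, chromosome 11, 17203198 to 17211589) rose from 33.2, 30.8 and 29.9 to 61.8, 46.9 and 54.9 RPKM (log2 change 0.77 ± 0.22, adjusted p = 0.02572). Neither gene overlapped between the days, and both were higher at day 1 in all 3 same-numbered pairs of libraries. Bop1 and Nop10 were called under all 29 alternatives, while Bysl and Pno1 each lost the call in 5, among them the fit of DNase-treated libraries for Bysl and quantile normalization for Pno1.

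The size of the increase differed among the same-numbered libraries. The member score went from -0.21 to 0.68 in replicate 1, with 40 of 41 genes higher at day 1. In replicate 2, where the title gives mouse 2 at day 0 and mouse 1 at day 1, it went from 0.18 to 0.53, with 37 higher. In replicate 3, both libraries from mouse 3, it was 0.16 and then 0.14, with 18 genes higher and 23 lower. Among DNase-treated libraries the median log2 change was 0.09, with Bop1, Nop10 and Pno1 called. The count was 2 (Bop1 and Nop10) with replicate 3 of day 0 or replicate 1 of day 1 left out, where 5.86% and 7.67% of all genes were called higher. It was 7 with replicate 3 of day 4 left out (11.2% of all genes) and 4 when the 3 libraries that stand apart were omitted (10.7%).

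**Figure D5:**
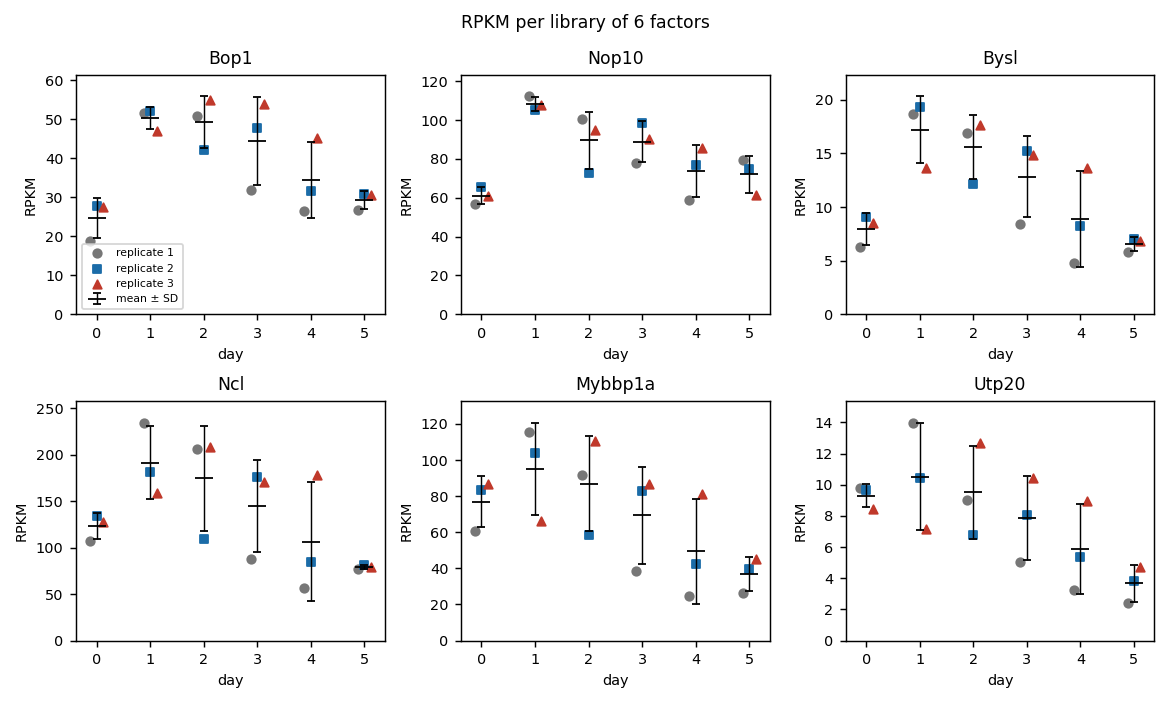
RPKM (y axis, from 0) of 6 genes in each library by day (x axis), with circles, squares and triangles for replicates 1, 2 and 3 and bars for the mean ± SD of 3 libraries. Bop1, Nop10 and Bysl are higher in every library of day 1 than of day 0, while Utp20 and Mybbp1a overlap between these days and reach their lowest means at day 5.

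Between day 0 and day 5, Utp20 and Polr1a fell and 0 genes rose. That is 4.88% of the 41, against 13.0% of all genes called lower and 11.4% called higher. Changes below 0 were found for 39 of the 41, against 62.6% of all genes. The median log2 change was -0.67, against -0.17 for all genes. An unadjusted p under 0.05 was reached by 15 of the 41, all lower, a share below the 40.7% of all genes that reached it in either direction. For 32 the 3 libraries of day 5 lay below those of day 0, against 34.9% of all genes. Utp20 stood at 9.79, 9.66 and 8.46 RPKM at day 0, above the 2.42, 3.84 and 4.72 RPKM of day 5 (log2 change -1.17 ± 0.32, adjusted p = 0.01968). Polr1a (Entrez 20019, chromosome 6, 71909053 to 71979435) stood at 7.38, 12.5 and 12.3 RPKM and then at 2.72, 4.61 and 6.27 RPKM (log2 change -1.10 ± 0.36, adjusted p = 0.0379). Neither gene overlapped between the days, although for Polr1a the lowest library of day 0 and the highest of day 5 were close. Between the same days all 4 Paneth and all 4 enterocyte markers were called higher, and 15 of the 20 G2 and mitosis genes and 4 of the 20 S phase genes were called lower, and their part in these changes was not tested.

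Both calls were lost among the DNase-treated libraries, where Ltv1 was the 1 gene called. With replicate 2 of day 0 or replicate 1 of day 5 left out the count was 0, where 5.5% and 2.48% of all genes were called lower, and with replicate 3 of day 0 or replicate 2 of day 5 left out it was 1 (Utp20), where 5.9% and 6.66% were. It was 4 when replicate 1 of day 3 was omitted (13.5% of all genes), 5 and 9 when replicate 1 or 3 of day 4 was (16.9% and 18.8%), and 14 when the 3 libraries that stand apart were (16.6%). A fit of these 2 days alone gave 29 and array weights gave 36, where 22.3% and 40.3% of all genes were called lower. At the other end, Bop1 stood at 24.7 ± 5.04 RPKM at day 0 and 29.4 ± 2.36 at day 5, and Nop10 at 61.1 ± 4.39 and 72.0 ± 9.38 RPKM (log2 changes 0.26 ± 0.22 and 0.23 ± 0.16, adjusted p = 0.3696 and 0.2952). Days 0, 1 and 5 are each shared between comparisons, so the values of the 3 comparisons are not independent of each other. Side by side, day 5 against day 0 gave Bysl -0.23, Pno1 -0.20 and Nop16 -0.11, whereas day 5 against day 1 gave them -1.26, -0.97 and -1.0.

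No step of a single day after day 1 gave a call among the 41 genes, and 0 had an unadjusted p under 0.05 in any of the 4 steps with limma, where 2.37%, 0.432%, 4.87% and 4.09% of all genes had one. Over all genes, 0.0% were called in either direction from day 1 to 2 and from day 2 to 3. From day 3 to 4 0.036% were called higher and 0.0% lower, and from day 4 to 5 0.189% and 0.0%. In these 4 steps in order, 36, 41, 41 and 40 of the 41 changes were below 0, against 48.7%, 61.3%, 65.8% and 55.0% of all genes, and 5, 0, 0 and 1 were above 0, against 51.3%, 38.7%, 34.2% and 45.0%. The later day lay wholly below the earlier one for 1, 0, 0 and 0 members, against 2.38%, 0.882%, 3.56% and 2.78% of all genes, and wholly above it for 0 members in each step, against 4.18%, 0.729%, 1.55% and 5.43%. The medians of the 41 were -0.15 (0.0 for all genes), -0.21 (-0.04), -0.44 (-0.09) and -0.24 (-0.03). They rested on single libraries: the first became 0.07 with replicate 2 of day 2 left out, the second 0.04 with replicate 1 of day 3 left out and the last 0.15 with replicate 3 of day 4 left out, while that from day 3 to 4 became -0.12 with replicate 1 of day 4 left out.

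From day 1 to day 2 the smallest p belonged to Nop10, at 101, 72.7 and 95.1 RPKM on day 2 (log2 change -0.29 ± 0.16, adjusted p = 1.0), and to Nhp2, at 137, 65.3 and 137 RPKM (-0.29 ± 0.31, adjusted p = 1.0). All 3 values of Nop10 at day 2 lay below its 105 RPKM or more of day 1, while Nhp2 overlapped. From day 2 to day 3 they belonged to Fbl, which went from 17.4, 8.57 and 15.0 to 5.58, 11.1 and 13.9 RPKM, and to Rrp12, which went from 11.5, 9.84 and 14.3 to 5.81, 11.1 and 11.8 RPKM (adjusted p = 0.9998 for both). Both genes overlapped between the days.

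From day 3 to day 4 the smallest p belonged to Rrp9, a U3 snoRNP protein, which went from 16.2, 35.3 and 33.7 to 9.99, 15.4 and 27.3 RPKM, and to Bysl, which went from 8.46, 15.2 and 14.8 to 4.77, 8.25 and 13.6 RPKM (adjusted p = 0.7591 for both). From day 4 to day 5 they belonged to Utp20, from 3.22, 5.39 and 8.97 to 2.42, 3.84 and 4.72 RPKM, and to Rrn3, from 8.36, 10.3 and 17.0 to 8.39, 9.23 and 8.98 RPKM (adjusted p = 0.9998 for both). Each of these pairs of groups overlapped.

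Within days 0 to 4 the median spread of these genes was wider than that of all genes, and within day 5 it was narrower. The ratio of the highest to the lowest library of a day had a median over the 41 genes of 1.38, 1.53, 1.77, 1.93, 2.84 and 1.22 at days 0 to 5, against 1.33, 1.39, 1.51, 1.45, 1.64 and 1.31 over all genes tested. At day 4 the ratio ran from 1.45 for Nop10 to 3.86 for Gar1, which stood at 11.9, 18.9 and 46.0 RPKM in replicates 1 to 3. Replicate 1 was the lowest and replicate 3 the highest of day 4 for all 41 genes. Replicate 1 was the lowest of day 3 for all 41, and replicate 2 the lowest of day 2 for 40. At day 5 the ratio was narrower, with Pes1 at 15.7, 15.7 and 15.6 RPKM.

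Other lists were low or high in the same libraries. Day 4 replicate 1, with a member score of -0.99, had scores of -1.22 for G2 and mitosis, -1.05 for S phase and 2.43 for enterocyte markers. Day 4 replicate 3, with a member score of 0.38, had 0.40, 0.43 and -0.43. Over all genes tested the score was -0.18 in day 4 replicate 1 and 0.08 in day 4 replicate 3. Day 3 replicate 1 (member score -0.44) and day 2 replicate 2 (-0.13) had enterocyte scores of 1.35 and 1.36, above those of the other libraries of their days. The part of these differences in the spread of the 41 genes was not tested.

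Over all days, 10 of the 41 genes differed by limma's F test, which is 24.4% against 25.3% of all genes, near the background. They were Bop1, Bysl, Nop10, Pno1, Ddx21, Rrp12, Rrn3, Utp20, Ddx56 and Nhp2, with adjusted p from 0.01082 for Bop1 to 0.04472 for Nhp2. With the mouse number as a factor the count was 22, against 30.5% of all genes, and with the replicate number as a block it was 17, against 31.7%. The count moved with single libraries in both directions. It was 39 with replicate 3 of day 4 left out, 18 with replicate 1 of day 3 and 17 with replicate 2 of day 2, where 45.4%, 29.5% and 31.3% of all genes were called. Where leaving out 1 library gave a count of 5 or fewer, 14.6% to 21.6% of all genes were called. It was 5 when replicate 1 or 2 of day 0, 1 or 3 of day 2 or 2 of day 4 was omitted, and 4 for replicate 2 of day 1 and for each replicate of day 5. It was 3 for replicate 3 of day 0 and for replicate 1 of day 1. Omitting the 3 libraries that stand apart gave 38 (43.8% of all genes), and the DNase-treated libraries gave 1, Bop1 (12.6%).

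Some features of gene structure, each held by a part of the members, are described here without a test. Small nucleolar RNAs are often made from introns of genes for ribosome production, and 6 of the 41 genes (14.63%) held annotated snoRNAs, against 2.2% of the tested genes matched to GENCODE M21. Nop56 held 5, Nop58 4, Ncl, Wdr43 and Gnl3 3 each and Dkc1 1. Of these 6 hosts, all but Dkc1 fell from day 1 to day 5, where 70.7% of the 41 genes and 16.1% of all genes were called lower. A difference between the hosts and the other members was not tested. The mRNA of the host was measured here, not the snoRNA.

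Another protein-coding gene on the opposite strand overlapped 13 of the 41 genes, among them Ccnd3 with Bysl, Spns2 with Mybbp1a, Wdr92 with Pno1, Rmnd5b with Nhp2, and Mroh1 and Scx with Bop1. Whether the authors counted by strand is not given in the sources used here, so reads of these pairs may not be told apart. No protein-coding gene on the same strand overlapped a member. The share of all genes with such overlaps was not computed.

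The relation of the change to transcript length varied between comparisons. Across the 41 genes, which are not independent and share libraries, Pearson's r between the log2 of length and the log2 change was -0.41 for day 5 against day 0 and -0.50 for day 5 against day 4, beside -0.24 and -0.17 across 10382 tested genes. For day 5 against day 1 it was -0.28, beside -0.09, and for day 1 against day 0 -0.25, beside -0.18. For the steps to days 2, 3 and 4 it was -0.06, -0.02 and 0.04. Lengths are medians over the principal transcripts of GENCODE M21 and may differ from those behind the RPKM values. That of Ncl, 8202 bases, is doubtful, and without Ncl r was -0.42, -0.50 and -0.24 for day 5 against days 0, 4 and 1.

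The 115 other genes of ribosome biogenesis that were tested also stood lower at day 5 than at day 1. From day 1 to day 5, 70 fell (60.9%, against 16.1% of all genes) and 0 rose (against 11.8%), with a median log2 change of -0.78. Those with the largest decreases were Mrto4, a factor of the ribosomal stalk (33.2 ± 5.91 to 11.7 ± 1.09 RPKM, adjusted p = 0.01236), and Noc4l, a small subunit factor (43.9 ± 6.69 to 16.9 ± 1.72 RPKM, adjusted p = 0.008516). From day 0 to day 1, 9 rose (7.83%, below the 9.54% of all genes) and 1 fell (0.87%, against 9.05%). The median log2 change was 0.37. Eif6, which keeps the large subunit from joining too early, rose from 48.4 ± 8.70 to 100 ± 16.4 RPKM (adjusted p = 0.0003578), a log2 change of 1.04 ± 0.15. Nop9 rose from 11 ± 1.31 to 20.4 ± 2.46 RPKM (adjusted p = 0.006611). Gltscr2 (Nop53) fell from 58.1 ± 13.4 to 36.8 ± 4.10 RPKM (adjusted p = 0.024).

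The products that these factors assemble moved less. Of 77 ribosomal protein genes tested, 7 fell (9.09%) and 0 rose from day 1 to day 5, a share below the 16.1% of all genes, with a median log2 change of -0.13. Those with the largest decrease, Rps28 (2.40 ± 1.23 and 0.592 ± 0.365 RPKM) and Rpl27 (6.5 ± 1.32 and 2.63 ± 0.240 RPKM), had low values for ribosomal protein genes. From day 0 to day 1, 2 rose and 2 fell (2.6% each, against 9.54% and 9.05% of all genes), with a median of -0.15. Rps4x, for instance, fell from 212 ± 5.12 to 142 ± 8.98 RPKM (adjusted p = 0.035), and Rpl7l1, a paralog of a ribosomal protein, rose from 24.9 ± 2.20 to 43.1 ± 7.41 RPKM (adjusted p = 0.01487). Ribosomal protein genes have many near-identical copies in the genome, and the treatment of reads that match several places is not given in the sources used here, so their values are uncertain. The difference between the 41 factors and the ribosomal proteins was not tested.

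RNA polymerase III, which makes the 5S ribosomal RNA and transfer RNAs, had 6 of 21 genes that fell (28.6%, against 16.1% of all genes) and 1 that rose (4.76%, against 11.8%) from day 1 to day 5. The subunit Polr3d fell from 14 ± 3.40 to 6.59 ± 1.26 RPKM (adjusted p = 0.02247) and Polr3f from 6.92 ± 1.80 to 3.74 ± 0.263 RPKM (adjusted p = 0.02422). The gene that rose was Maf1, the repressor of this polymerase, from 18.6 ± 2.02 to 40.1 ± 7.09 RPKM (log2 change 1.06 ± 0.17, adjusted p = 0.0009393). Of 16 long RNAs that host snoRNAs, 3 fell and 1 rose between these days, shares of 18.8% and 6.25% that are near and below those of all genes. Snhg3 fell from 73.2 ± 8.48 to 15.8 ± 1.53 RPKM (adjusted p = 0.009695) and Snhg5 from 57.9 ± 16.7 to 17.1 ± 3.83 RPKM (adjusted p = 0.03386), while Snhg18 rose from 0.901 ± 0.0989 to 2.83 ± 0.425 RPKM (adjusted p = 0.001855).

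Myc itself, a known activator of ribosome biogenesis genes, did not pass the test in any of these comparisons. It stood at 15.1, 46.9 and 43.5 RPKM at day 0, at 50.9, 67.6 and 56.1 at day 1 and at 23.5, 40.1 and 44.3 at day 5. Day 1 lay above both other days without overlap, with adjusted p of 0.2745 against day 0 and 0.2993 for day 5 against day 1. Mycn was at 2.09 ± 1.14, 0.936 ± 0.555 and 0.764 ± 0.180 RPKM at these days (adjusted p = 0.1094 and 0.7882).

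Of the 11 genes of the Myc family and network, 4 rose and 0 fell from day 1 to day 5. Of all genes 11.8% were called higher and 16.1% lower. Mxd4 and Mxi1, partners of Max that repress Myc targets, rose from 2.68 ± 0.472 to 17.3 ± 1.91 RPKM (adjusted p = 0.001022) and from 2.98 ± 0.598 to 7.56 ± 0.898 RPKM (adjusted p = 0.0006537). Mycl rose from 6.72 ± 1.88 to 11.2 ± 1.53 RPKM (adjusted p = 0.03621), and Mnt, another partner of Max that represses, from 4.16 ± 0.554 to 6.65 ± 1.49 RPKM (adjusted p = 0.02189). From day 0 to day 1, Mxd1, Mlx and Max rose and Mxd4, Mxd3, Mxi1 and Mnt fell. The shares of all genes were 9.54% higher and 9.05% lower. Max rose from 20.7 ± 2.42 to 30.7 ± 3.31 RPKM (adjusted p = 0.01171), and Mxd4 fell from 8.47 ± 2.60 to 2.68 ± 0.472 RPKM (adjusted p = 0.02176).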

How the data were processed

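The authors deposited RPKM values. Per the submitters' processing notes, STAR 2.5.2b, edgeR 3.20.5, bcl2fastq 2.17 and genome build mm10 were used, in roles that the notes leave out. Not given in the sources used here are the annotation, the use of strand and the treatment of reads that match several places. Library sizes were recovered from the steps between low values. The 18 libraries were grouped by day from the labels, and nothing in them says that replicates were separate cultures beyond the 3 organoid lines, so p-values measure the spread between these libraries.

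Values were tested as log2(RPKM + 1), a scale that understates the change of low genes, with limma 3.58.1 in R 4.3.3 (lmFit, eBayes with a trend, day as the factor, all 18 libraries). The filter asked for 3 or more libraries at 1 RPKM or above, which 11111 genes met. All tests were two-sided, with Benjamini-Hochberg adjustment across these genes, and a gene was called at an adjusted p under 0.05. The fit was run on simulated data, in which each value was drawn independently around the mean of its gene. Effects shared by a library, a mouse or the DNase treatment were not simulated, so the simulation does not check the fit against them. Alternatives changed 1 choice at a time. Fits that left out libraries kept the same set of genes. Array weights used limma's gene-by-gene method, which was chosen after the default method failed to converge.

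The members, the lists and the comparison of day 5 with day 1 were chosen with earlier results of these data known. Named are all members. Library values are given for the 4 called members with the largest changes in each direction of a comparison, or the 2 of smallest p where none was called, and day means for the most abundant member of each role and the 3 least abundant. Library values of Fbl, Npm1, Gar1 and Pes1 were added after they had been seen. Of other lists, the 2 called genes with the largest change in each direction were eligible, and of the Myc family Myc, Mycn and called genes. Spread within days, days of extreme means, overlap, same-numbered pairs, snoRNAs, transcript length and E-box groups were described after the values had been seen. Promoter windows and the coordinates of members came from RefSeq, GRCm38.p6. The snoRNAs, overlapping genes and transcript lengths came from GENCODE M21. Protein sequences were not used here.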

Additional observations from a re-analysis of the deposited data

How the results depend on the processing

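The medians kept their sign under every alternative for day 1 against day 0 (0.09 to 0.52), day 4 against day 3 (-0.82 to -0.12), day 5 against day 0 (-0.74 to -0.51) and day 5 against day 1 (-1.18 to -0.85). In the other steps they reversed. Leaving out 1 library at a time, day 2 against day 1 ran from -0.31 to 0.07 (without day 2 replicate 2) and Nhp2 in it from -0.47 to 0.06, day 3 against day 2 from -0.43 to 0.04 (without day 3 replicate 1) and day 5 against day 4 from -0.55 to 0.15 (without day 4 replicate 3). DNase-treated libraries gave 0.13 for day 3 against day 2 (Fbl 0.12), and day 5 against day 4 also gave 0.15 when the 3 libraries that stand apart were omitted.

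Leaving out 1 library at a time, the count of called genes ran from 3 to 39 for the F test (10 with all), from 2 to 7 for day 1 against day 0 (4), from 0 to 9 for day 5 lower than day 0 (2) and from 6 to 40 for day 5 lower than day 1 (29). With the replicate number as a block, the F test gave 17, where 31.7% of all genes were called. Day 5 lower than day 0 gave 4 (17.4% of all genes) and day 5 lower than day 1 gave 34 (19.7%). The main fit did not pair the libraries by number. The correlation of deviations from the day means ran from -0.643 to 0.806 (median 0.17) for the same number. For other numbers it ran from -0.789 to 0.671 (median -0.081). Its median was 0.143 for libraries of the same mouse and -0.065 for those of other mice. By these medians, libraries of the same number, and those of the same mouse, were somewhat more alike, which the main fit left out. Replicate number, mouse and DNase treatment go largely together here, so their parts cannot be told apart. With the mouse as a factor the F test gave 22, day 1 against day 0 gave 7 and day 5 lower than day 0 gave 4. In that order 30.5%, 10.4% and 15.1% of all genes were called. Day 5 lower than day 1 gave 38 in that fit, where 21.3% of all genes were called lower. Among DNase-treated libraries the F test gave 1, day 5 lower than day 0 gave 1 and day 5 lower than day 1 gave 10. Of all genes 12.6%, 4.47% and 7.39% were called there. Without a filter the counts were 4, 1 and 19, where 15.5%, 8.64% and 7.37% of all genes were called. Array weights, which put a weight of 8.56 on day 4 replicate 2, gave 41 for the F test, 9 for day 1 against day 0, 36 for day 5 lower than day 0 and 39 for day 4 lower than day 3 (0 unweighted), where 81.8%, 19.3%, 40.3% and 21.9% of all genes were called. Without the 3 libraries that stand apart the F test gave 38 and day 5 lower than day 0 gave 14. Of all genes 43.8% and 16.6% were called there. Fits of only the 2 days compared gave 10 for day 1 against day 0 and 29 for day 5 lower than day 0. In these fits 10.8% and 22.3% of all genes were called. Median-of-ratios rescaling gave 7 for day 1 against day 0, where 10.2% of all genes were called higher. It gave 1 higher for day 5 against day 0 (Nop10), where 14.2% of all genes were. Quantile normalization gave 6 for day 5 lower than day 0, where 14.6% of all genes were called lower. The cause of these moves was not tested. The rescaling moved the median of all genes for day 5 against day 1 from -0.15 to -0.01 and the calls over all genes from 1308 higher and 1785 lower to 1648 and 1369. For day 5 against day 0 it moved them from 1268 and 1446 to 1576 and 1204. The median of the members for day 5 against day 1 stayed between -1.14 and -0.85 under the alternatives that left out no single library. Depth was at least 43.0 reads per kilobase at 1 RPKM in each library.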
